A study of Mus musculus with 24 samples.

Results

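The cell cycle and DNA replication genes described here are a list of 36 mouse genes chosen by symbol, from the MCM helicase and the enzymes of nucleotide supply to the cyclins, kinases, checkpoint proteins and motors of mitosis. Of these, 34 were measured, 30 by 1 probe set and 4 (Cdc6, Ccne2, Cdk2 and Birc5) by 2, among 14351 genes in all. Pcna and Mki67 were not analysed here. Total RNA from the median and left lobes of mouse liver was hybridised to 24 Affymetrix 3' arrays, 1 mouse per array. Young mice had an age of 4 to 5 weeks and adult mice one of 12 to 14 months, and in each age 3 mice had a sham operation, while 3 more had 30 min, 3 had 60 min and 3 had 90 min of ischemia of part of the liver, in which its blood flow is closed. The titles follow each ischemia time with a 0 that the labels do not explain, and strain and sex are not given in the sources used here. No group carried a transgene or received a drug, as far as the labels state. The comparisons ask how each length of ischemia moved these genes in each age, whether replication and mitosis genes moved alike, and whether the ages differed.

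As background, a cell commits to division when D- and E-type cyclins with their kinases release E2F factors from the retinoblastoma protein, and E2F switches on the genes that license and copy DNA. Origins are licensed when Cdc6 and Cdt1 load the ring-shaped Mcm2 to Mcm7 helicase, and geminin (Gmnn) holds Cdt1 back so that no origin fires again. Genes of mitosis are switched on later, through promoter elements known as the cell cycle homology region (CHR) and the CCAAT box, and their products are destroyed as cells leave mitosis. Hepatocytes of the adult liver rarely divide and re-enter the cycle after loss of tissue, whereas the liver of a growing mouse still holds dividing cells.

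Each deposited value is a linear ratio in which the sham mice of an age average 1 for every probe set. Brightness is not kept: levels cannot be compared between genes or between sham livers of the ages, and neither the tissue's own marker levels nor dim probe sets could be checked. Array medians ran from 0.956 to 1.02. Differences below are on the log2 scale with the standard error (SE) from limma, a linear model over all 24 arrays with 3 arrays per group, and a gene passed at a Benjamini-Hochberg adjusted p under 0.05 over all 14351 genes. The SE of a gene pools the spread of both ages, and the number of arrays limits the precision.

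Some young arrays stood apart in these genes. Replicate 1 of the young 30 min group was the highest of the 12 young arrays for 19 of the 34 members, whereas 4.02% of all genes were highest there. Young sham replicate 2 and young 60 min replicate 3 were each the lowest young array for 10 members, against 4.98% and 7.47% of all genes. Young sham replicate 3 was the highest young sham array for each of the 6 Mcm genes and for Cdc20. Of the 12 young arrays it was the highest for 4 of the 34 members and for 25.7% of all genes. A code in the sample titles, whose meaning the labels do not give, is shared by replicate 1 of the young 30, 60 and 90 min groups and by none of the young sham arrays. No code is shared between young and adult arrays, so a difference in spread between the ages cannot be told apart from one between codes. The spread within groups was larger in young than in adult mice for 28 of the 34 members (82.4%), against 46.2% of all genes. Its median over members was 0.25 on the log2 scale in young and 0.15 in adult mice, and over all genes it was 0.15 in both ages. Cdc20 had a within-group SD of 0.86 in young and 0.20 in adult mice, and Mcm6 had 0.82 and 0.25. Tyms was among the members with no such excess, at 0.07 and 0.09.

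No member passed in any of the 9 comparisons. Among all genes, 0.0557% passed after 30 min, 0.0279% after 60 min and 0.181% after 90 min in young mice, and 0%, 11.9% and 7.45% in adult mice. The smallest adjusted p of a member in limma was 0.349 (Aurkb), 0.152 (Tk1) and 0.267 (Cdk1) in young mice after 30, 60 and 90 min, and 0.50 (Cdk2), 0.0755 (Rrm1) and 0.0784 (Ccnb1) in adult mice. At an unadjusted p under 0.05, 8 members were higher and 0 lower after 30 min in young mice, where 2.29% of all genes were higher and 6.08% lower. After 60 min in young mice these counts were 0 and 3 (3.80% and 6.64% of all genes), and after 90 min they were 10 and 0 (3.41% and 5.60%). In adult mice they were 0 and 0 after 30 min (3.73% and 6.62%), 0 and 3 after 60 min (8.45% and 24.8%), and 1 and 1 after 90 min (8.29% and 20.3%). The young counts at 30 and 90 min thus stood above the share of all genes that was higher, and the adult counts did not stand above either share. With the young arrays alone these young counts of 8 and 10 were 4 and 5. The adult counts of 0, 3 and 2 in both directions together became 3, 7 and 6 with arrays of 1 age only and 1, 5 and 4 with the title code as a block. With quantile normalization they were 0, 0 and 1. At 60 min the adult count was 1 without adult sham replicate 2 or 3 or adult 60 min replicate 1 or 2. At 90 min it fell to 1 when adult sham replicate 3 was left out and rose to 4 when 90 min replicate 3 was, and at 30 min it rose to 1 when 30 min replicate 3 was left out. For these refits the shares of all genes are not given here, so their counts cannot be set against the shares above.

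The median difference of the 34 members was 0.22 after 30 min in young mice, with 28 members above 0, beside a median of -0.02 over all genes. After 60 min it was 0.02 with 18 members above 0, and after 90 min 0.22 with 26 above 0, against -0.02 over all genes at both times. In adult mice the medians were 0.03, -0.01 and -0.02 after 30, 60 and 90 min, with 20, 16 and 13 members above 0, and the medians of all genes were -0.03, -0.05 and -0.04. Each young comparison rested on few arrays. Without young 30 min replicate 1, the 8 members at an unadjusted p under 0.05 became 0 and the mean difference of the members went from 0.26 to 0.07. Without young sham replicate 3 the count was 14, and without young sham replicate 2 or 1 it was 3 or 5. Without young 30 min replicate 2 or 3 it was 13 or 12. At 90 min, leaving out young 90 min replicate 2 took the count from 10 to 0 and the mean from 0.28 to 0.18. At 60 min the count of 3 became 6 without young 60 min replicate 3, 5 with quantile normalization and 6 when the title code was a block. At 90 min the count was 5, 4 and 14 without young sham replicate 1, 2 and 3, and 6 without young 90 min replicate 1. With the title code as a block the counts were 3 at 30 min and 4 at 90 min, with means of 0.15 and 0.18. No share of all genes is given beside the counts of these refits, so whether such moves were particular to the members was not tested.

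**Figure D1:**
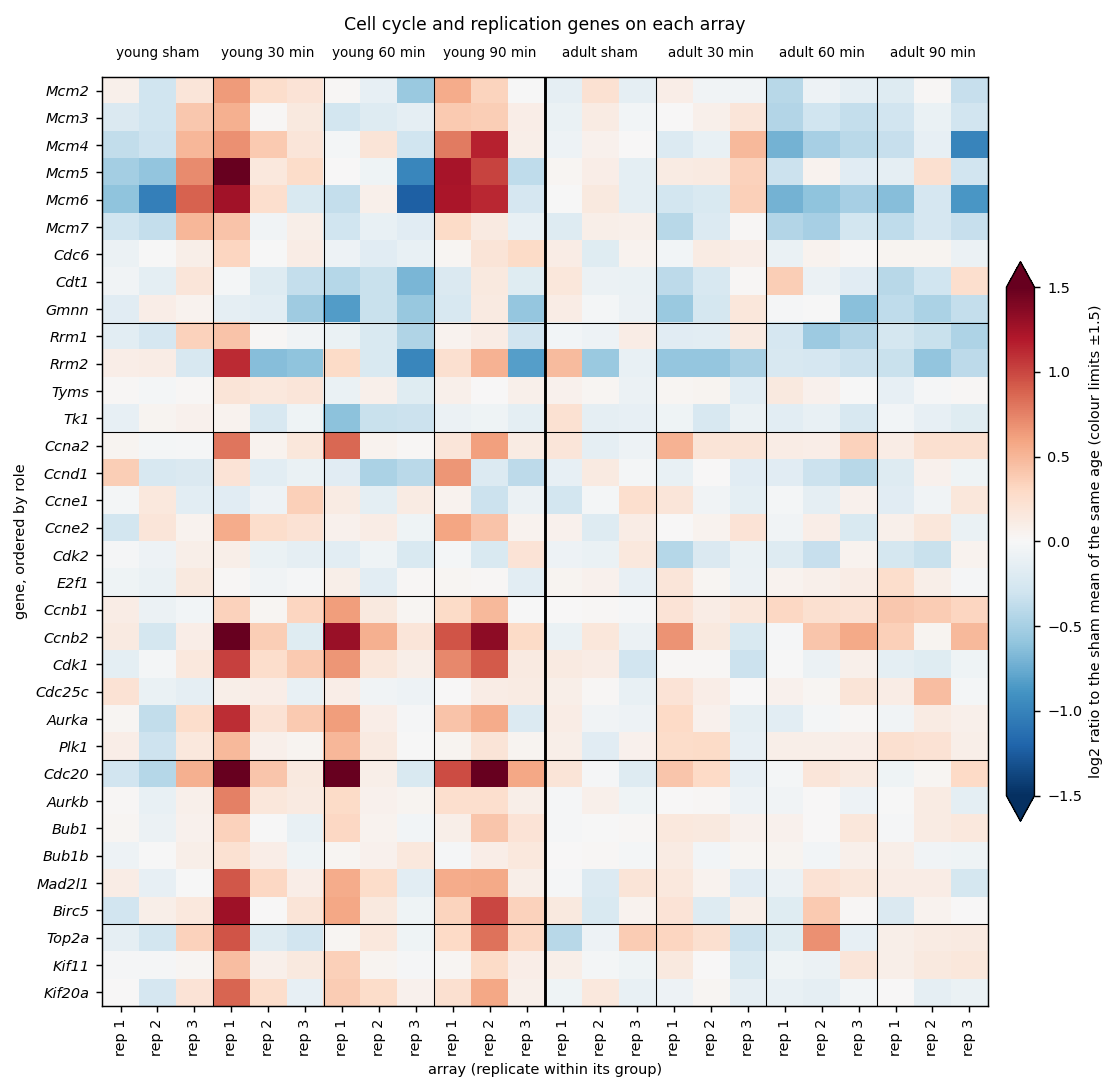
Log2 ratio to the mean sham array of the same age for the 34 measured members (rows, ordered by role) on each of the 24 arrays (columns, ordered by age and ischemia time). Young 30 min replicate 1 holds the highest young value of 19 members, and the adult columns vary less than the young ones for 28 of 34 members.

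The 8 measured genes of the replication set (Mcm2 to Mcm7, Rrm1 and Rrm2) and the 14 genes of the mitosis set were averaged on each array, as a description with no test. In young sham livers the replication mean was -0.25, -0.38 and 0.41 on the log2 scale, and the mitosis mean was -0.00, -0.15 and 0.12. After 30 min the replication mean was 0.84, 0.05 and -0.00 and the mitosis mean 0.83, 0.17 and 0.09, so both sets were high on the same array. After 60 min the replication mean was -0.09, -0.08 and -0.60, within or below the sham range, while the mitosis mean was 0.56, 0.15 and -0.00. After 90 min the replication mean was 0.60, 0.60 and -0.21 and the mitosis mean 0.35, 0.63 and 0.14. The young ischemic and sham arrays overlapped in the replication mean at each time, and in the mitosis mean they overlapped at 30 and 60 min and lay just above sham at 90 min.

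In adult livers the replication mean was -0.00, 0.02 and -0.05 in sham and -0.18, -0.14 and 0.12 after 30 min. After 60 min it was -0.44, -0.34 and -0.33 and after 90 min -0.32, -0.17 and -0.50, below each sham array on all 6 arrays. The adult mitosis mean stayed between -0.09 and 0.20 on all 12 arrays. Each of the 8 replication genes was below 0 at 60 and at 90 min, with medians of -0.38 and -0.34, whereas 11 and 8 of the 14 mitosis genes were above 0, with medians of 0.08 and 0.07. Of all 14351 genes, 8420 and 8104 were below 0 at these times, with medians of -0.05 and -0.04. Lower than sham without overlap were 5 and 4 of the 8 replication genes, beside 25.9% and 26.4% of all genes. The replication mean less the mitosis mean, relative to sham, was -0.12 at 30 min, -0.43 at 60 min and -0.40 at 90 min in adult mice. In young mice it was -0.01, -0.43 and 0.01 after 30, 60 and 90 min. Without young sham replicate 3 the young values were 0.17, -0.26 and 0.19. With 1 array left out the young 90 min value ran from -0.14, without young 90 min replicate 1, to that 0.19, so it had no settled sign. The adult 30 min value ran from -0.29, without adult 30 min replicate 3, to 0.01, without adult 30 min replicate 1. Against the adult sham array that shared its title code, the replication mean was lower by 0.44, 0.36 and 0.28 at 60 min and by 0.34, 0.13 and 0.45 at 90 min. In young mice the same difference was -0.36 and -0.41 for 30 min replicates 2 and 3, 0.16 and -0.22 for 60 min replicates 2 and 3, and 0.84 and 0.17 for 90 min replicates 2 and 3. The code of replicate 1 at each young time has no sham array and gave no such value. Both young 30 min values were taken against young sham replicate 3, whose replication mean was 0.41. The adult 90 min values of replicates 2 and 3 shared adult sham replicate 3. Values that share a sham array are not independent. In RNA of whole liver, fewer cells of a type and less RNA per cell cannot be told apart.

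**Figure D2:**
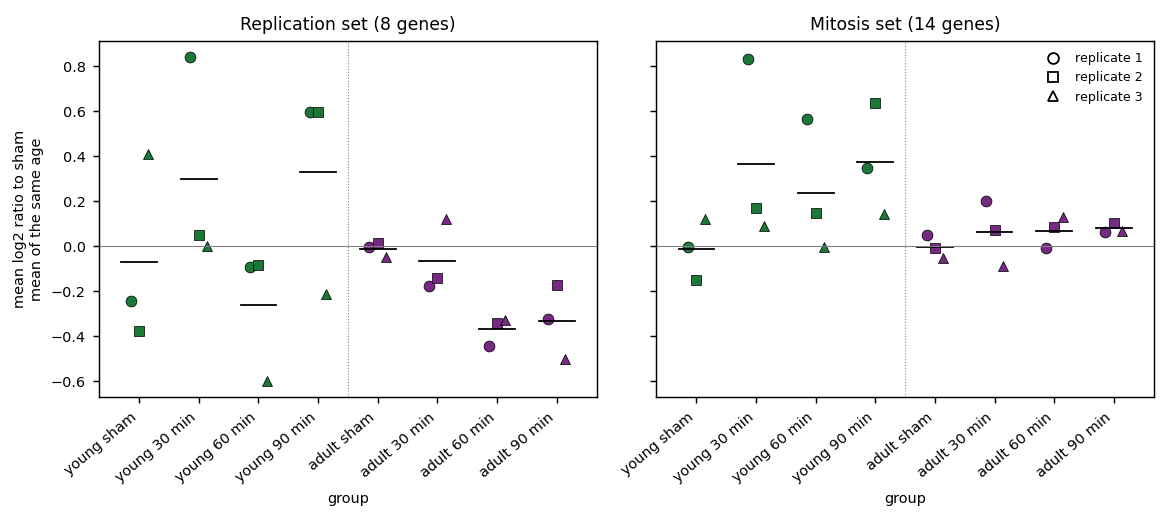
Mean log2 ratio of the 8 measured replication genes and of the 14 mitosis genes on each array, by age and ischemia time; each point is 1 array and the horizontal lines are group means. Young arrays spread widely, and the adult replication means at 60 and 90 min, from -0.50 to -0.17, lie below the adult sham arrays while the mitosis means do not.

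Among the helicase subunits, Mcm6 had the largest difference in young mice at 60 and 90 min and in adult mice at 60 and 90 min, while at 30 min that of Mcm5 was larger in both ages. Its ratio was 0.659, 0.491 and 1.85 in young sham liver, 2.39, 1.19 and 0.853 after 30 min, 0.779, 1.05 and 0.427 after 60 min, and 2.33, 2.20 and 0.841 after 90 min. The young groups overlapped at each time. In adult liver Mcm6 was at 0.993, 1.10 and 0.904 in sham, 0.825, 0.853 and 1.29 after 30 min, 0.610, 0.659 and 0.708 after 60 min, and 0.645, 0.841 and 0.548 after 90 min. All 6 adult arrays at 60 and 90 min were below the 3 adult sham arrays. The difference from sham was 0.95 ± 0.44 in young mice at 90 min (limma, adjusted p = 0.525). In adult mice it was -0.60 ± 0.44 at 60 min (adjusted p = 0.355) and -0.58 ± 0.44 at 90 min (adjusted p = 0.389). The SE is shared by both ages, and in a fit of the adult arrays alone it was 0.18, with an adjusted p of 0.0607 at 60 min. That limma fit also gave an adjusted p of 0.0505 for Mcm3, 0.0537 for Rrm1 and 0.0600 for Mcm7 at 60 min, all lower. For Ccnb1, which was higher, it gave 0.0557 at 60 min and 0.0532 at 90 min. No member passed in it, while 587 and 47 of all genes did at 60 and 90 min.

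Mcm5 was at 0.705, 0.664 and 1.63 in young sham liver, 3.13, 1.12 and 1.21 after 30 min, 1.00, 0.960 and 0.508 after 60 min, and 2.36, 2.01 and 0.768 after 90 min. Its values in the young groups overlapped, and the difference at 30 min was 0.82 ± 0.40 (limma, adjusted p = 0.598). In adult liver Mcm5 was between 0.802 and 1.27 on all 12 arrays, and its differences were 0.20, -0.14 and -0.06 at 30, 60 and 90 min.

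The promoters of Mcm6 and Mcm5 are shown because these were the replication genes with the largest differences in any comparison with sham, both in young mice. Both carry E2F letters, which were not a reason for the choice. Each line gives the 250 bases before the transcript start from RefSeq (GRCm38.p6), 5′ to 3′ on the gene's own strand, with E2F and CCAAT letters in capitals. The Mcm6 window is chr1:128359706-128359955 on the minus strand, and the Mcm5 window is chr8:75109259-75109508 on the plus strand.
Mcm6: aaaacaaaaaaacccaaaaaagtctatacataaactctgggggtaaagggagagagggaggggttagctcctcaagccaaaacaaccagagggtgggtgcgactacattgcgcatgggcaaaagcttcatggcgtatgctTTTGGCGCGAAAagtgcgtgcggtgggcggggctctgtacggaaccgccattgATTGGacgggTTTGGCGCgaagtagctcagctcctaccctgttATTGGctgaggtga
Mcm5: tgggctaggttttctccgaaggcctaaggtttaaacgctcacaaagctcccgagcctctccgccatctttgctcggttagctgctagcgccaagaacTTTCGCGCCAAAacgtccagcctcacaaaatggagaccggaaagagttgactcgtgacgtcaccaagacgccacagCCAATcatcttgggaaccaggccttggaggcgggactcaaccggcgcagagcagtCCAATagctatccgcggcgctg
In both, the first run of capitals holds 2 overlapping E2F matches on opposite strands, beginning 110 and 106 bases before the Mcm6 start and 153 and 149 bases before the Mcm5 start. A further Mcm6 match begins 47 bases before the start.

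Of the other subunits, Mcm4 was at 0.775, 0.808 and 1.42 in young sham liver and at 1.72, 2.23 and 1.06 after 90 min, a difference of 0.73 ± 0.26 (limma, adjusted p = 0.336) with overlapping groups. In adult liver it was at 0.948, 1.05 and 1.00 in sham, 0.610, 0.708 and 0.758 after 60 min, and 0.784, 0.921 and 0.503 after 90 min. Those adult groups did not overlap sham, with differences of -0.54 ± 0.26 (adjusted p = 0.163) and -0.49 ± 0.26 (adjusted p = 0.229). Mcm3 was at 0.936, 1.09 and 0.972 in adult sham and at 0.737, 0.812 and 0.781 after 60 min (-0.36 ± 0.15, adjusted p = 0.0954). For Mcm7 the adult values were 0.878, 1.06 and 1.06 in sham, 0.735, 0.706 and 0.826 after 60 min, and 0.770, 0.838 and 0.785 after 90 min, with differences of -0.40 ± 0.18 and -0.32 ± 0.18 (adjusted p = 0.116 and 0.230). Mcm2 overlapped sham in adult mice at both times (-0.20 and -0.16). In young mice after 30 min it was at 1.56, 1.20 and 1.15 against 1.06, 0.814 and 1.13 in sham, a difference of 0.39 ± 0.17 (adjusted p = 0.552).

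Among the licensing factors, Gmnn, which inhibits Cdt1, was at 0.887, 1.08 and 1.04 in young sham liver, 0.908, 0.894 and 0.691 after 30 min, 0.558, 0.792 and 0.676 after 60 min, and 0.845, 1.10 and 0.670 after 90 min. The 60 min arrays were all below sham, by -0.58 ± 0.19 (limma, adjusted p = 0.334). In adult liver Gmnn was at 1.08, 0.983 and 0.939 in sham, 0.679, 0.832 and 1.12 after 30 min, 0.986, 0.998 and 0.649 after 60 min, and 0.767, 0.720 and 0.783 after 90 min. Only the 90 min group of these did not overlap sham (-0.40 ± 0.19, adjusted p = 0.180). Cdt1, the helicase loader, was at 0.963, 0.903 and 1.13 in young sham and at 0.743, 0.792 and 0.621 after 60 min, again with no overlap (-0.48 ± 0.17, adjusted p = 0.371). At 30 and 90 min in young mice Cdt1 overlapped sham, with differences of -0.18 and -0.08, and in adult mice it overlapped sham at each time. Cdc6, the other loader, stayed between 0.884 and 1.25 on all 24 arrays.

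Of the nucleotide supply enzymes, Rrm1 and Rrm2 are the large and small subunits of ribonucleotide reductase. Rrm1 was at 0.970, 0.952 and 1.08 in adult sham liver, 0.887, 0.893 and 1.09 after 30 min, 0.839, 0.687 and 0.736 after 60 min, and 0.835, 0.793 and 0.723 after 90 min. The adult 60 and 90 min arrays lay below all sham arrays, by -0.41 ± 0.15 (limma, adjusted p = 0.0755) and -0.35 ± 0.15 (adjusted p = 0.141). In young liver Rrm1 was at 0.894, 0.837 and 1.27 in sham, and its differences were 0.15, -0.23 and -0.02 at 30, 60 and 90 min with overlapping groups. Rrm2 was at 1.39, 0.677 and 0.929 in adult sham and at 0.668, 0.670 and 0.714 after 30 min, a difference of -0.49 ± 0.39 (adjusted p = 0.621), with 1 sham array among the ischemic values. In young mice after 30 min Rrm2 was at 2.18, 0.641 and 0.659, so that replicate 1 was the highest and the others were below all 3 sham arrays (1.07, 1.08 and 0.846).

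Thymidine kinase, Tk1, salvages thymidine. It was at 0.918, 1.03 and 1.05 in young sham liver and at 0.651, 0.791 and 0.801 after 60 min, a difference of -0.42 ± 0.10 (limma, adjusted p = 0.152) without overlap. After 30 min it was at 1.04, 0.850 and 0.954 and after 90 min at 0.944, 0.957 and 0.904, both overlapping sham. In adult liver Tk1 was between 0.845 and 1.17 on all arrays, and its differences were -0.12, -0.16 and -0.11. Tyms, thymidylate synthase, which makes the thymidine nucleotide anew, lay between 0.879 and 1.14 on all 24 arrays, with differences from -0.07 to 0.18. At 60 min in young mice, Tk1, Gmnn and Cdt1 were the members at an unadjusted p under 0.05 in the model of all arrays and those lower than sham without overlap, where 7.78% of all genes were lower without overlap.

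**Figure D3:**
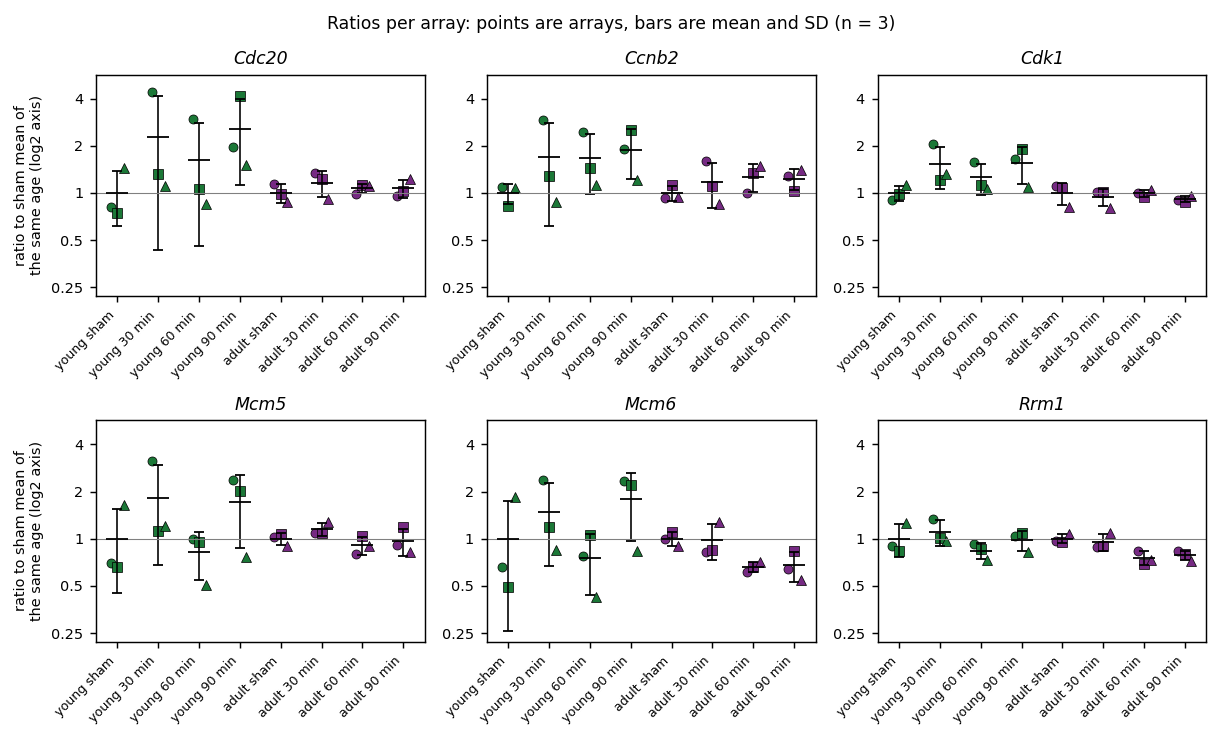
Ratio to the mean sham array of the same age (log axis) for Cdc20, Ccnb2, Cdk1, Mcm5, Mcm6 and Rrm1 on every array; points are single arrays, and the bars show the mean and SD of the ratios. The young groups overlap widely in the Mcm genes, where sham replicate 3 is high, and adult Mcm6 and Rrm1 lie below sham at 60 and 90 min.

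The 6 genes of the G1 to S step had median differences between -0.04 and 0.03 in the 6 comparisons with sham. Ccne2, a cyclin E that activates Cdk2, was at 0.829, 1.13 and 1.04 in young sham liver, 1.47, 1.20 and 1.16 after 30 min and 1.50, 1.34 and 1.04 after 90 min. The 30 min arrays were above all sham arrays, and the differences were 0.36 ± 0.14 (limma, adjusted p = 0.453) and 0.37 ± 0.14 (adjusted p = 0.374). Ccne1, the other cyclin E, was between 0.801 and 1.28 on all 24 arrays. In young liver after 90 min it was at 1.04, 0.801 and 0.941, a difference of -0.11 ± 0.15 (adjusted p = 0.921). Ccna2, cyclin A, was at 1.03, 0.978 and 0.991 in young sham, 1.74, 1.04 and 1.13 after 30 min, 1.82, 1.04 and 1.01 after 60 min, and 1.14, 1.53 and 1.09 after 90 min. It lay above sham without overlap at 30 and 90 min (0.34 ± 0.20 and 0.31 ± 0.20, adjusted p = 0.656 and 0.722). In adult liver Ccna2 was at 1.14, 0.914 and 0.948 in sham, 1.43, 1.14 and 1.15 after 30 min, 1.08, 1.07 and 1.27 after 60 min, and 1.08, 1.18 and 1.18 after 90 min, with differences of 0.31, 0.19 and 0.20 ± 0.20.

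Ccnd1, cyclin D1, which starts the cycle in response to growth signals, was at 0.887, 0.797 and 0.752 after 60 min in adult liver against 0.922, 1.10 and 0.983 in sham (-0.30 ± 0.20; limma, adjusted p = 0.298). In young liver it was at 1.58 on 90 min replicate 1 and at 0.865 and 0.760 on the others. Cdk2, the S phase kinase, was at 0.745, 0.859 and 0.933 in adult liver after 30 min against 0.947, 0.937 and 1.12 in sham, a difference of -0.24 ± 0.13 (adjusted p = 0.50) with no overlap. E2f1, the transcription factor of the list, was between 0.895 and 1.20 on all 24 arrays, and its differences from sham ran from -0.04 to 0.11.

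In the mitotic entry group, cyclin B (Ccnb1, Ccnb2) and Cdk1 form the kinase that starts mitosis. Ccnb2 was at 1.09, 0.831 and 1.07 in young sham liver, 2.93, 1.29 and 0.881 after 30 min, 2.45, 1.45 and 1.13 after 60 min, and 1.92, 2.54 and 1.22 after 90 min. The 60 and 90 min arrays were all above sham, and the differences were 0.59, 0.68 and 0.87 ± 0.35 (limma, adjusted p = 0.666, 0.504 and 0.409). In adult liver Ccnb2 was at 0.934, 1.12 and 0.942 in sham, 0.992, 1.33 and 1.49 after 60 min, and 1.28, 1.03 and 1.40 after 90 min, with overlap at both times (0.33 and 0.30 ± 0.35). Cdk1 was at 0.904, 0.978 and 1.12 in young sham, 2.04, 1.20 and 1.31 after 30 min, 1.58, 1.13 and 1.06 after 60 min, and 1.65, 1.90 and 1.10 after 90 min. Its differences were 0.57, 0.31 and 0.60 ± 0.20 (adjusted p = 0.354, 0.578 and 0.267), and in adult liver they were -0.08, 0.00 and -0.12.

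Ccnb1 was the mitotic gene with the tightest adult values. It was at 1.01, 1.01 and 0.985 in adult sham liver, 1.15, 1.08 and 1.12 after 30 min, 1.24, 1.19 and 1.17 after 60 min, and 1.32, 1.31 and 1.25 after 90 min. Each adult ischemic array lay above all 3 sham arrays. The differences were 0.16, 0.26 and 0.37 ± 0.13, and at 90 min the adjusted p in limma was 0.0784. With the title code as a block the 90 min difference was 0.39 ± 0.11 with an adjusted p of 0.0401, past the threshold, where 1467 genes passed instead of 1069. In young liver Ccnb1 was at 1.08, 0.944 and 0.972 in sham and reached 1.54 on 60 min replicate 1, and its differences were 0.23, 0.27 and 0.26 ± 0.13. The other entry genes were the kinases Plk1 and Aurka and the phosphatase Cdc25c, which activates Cdk1. Aurka was at 2.15, 1.16 and 1.31 after 30 min in young liver against 1.02, 0.776 and 1.20 in sham (0.59 ± 0.22, adjusted p = 0.402), whereas Cdc25c stayed between 0.910 and 1.16 on the 12 young arrays.

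Cdc20, the activator of the anaphase-promoting complex that ends mitosis, had the largest difference of any member in young liver at 30 and at 90 min. It was at 0.817, 0.741 and 1.44 in young sham, 4.43, 1.33 and 1.10 after 30 min, 2.97, 1.06 and 0.851 after 60 min, and 1.98, 4.17 and 1.50 after 90 min. The 90 min arrays were above all sham arrays, 1 of them by a small margin. At 90 min the difference was 1.27 ± 0.45 (95% interval 0.33 to 2.22; limma, adjusted p = 0.322), and at 30 min it was 0.97 ± 0.45 (adjusted p = 0.583). This SE pools both ages. In limma fits of 1 age only it was 0.56 in young mice (adjusted p = 0.464 at 90 min) and 0.15 in adult mice. The 60 min difference of 0.54 ± 0.45 became -0.01 without young 60 min replicate 1. In adult liver Cdc20 was at 1.14, 0.987 and 0.873 in sham, 1.34, 1.23 and 0.917 after 30 min, 0.984, 1.13 and 1.10 after 60 min, and 0.953, 1.02 and 1.23 after 90 min, with differences of 0.20, 0.11 and 0.10 ± 0.45.

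The promoters of Cdc20 and Ccnb2 are shown as those of the mitosis genes with the largest differences. They are drawn from the same RefSeq table (GRCm38.p6), 250 bases before the start on the gene's own strand, with CHR and CCAAT letters in capitals. The Cdc20 window is chr4:118437344-118437593 and the Ccnb2 window chr9:70421555-70421804, both on the minus strand.
Cdc20: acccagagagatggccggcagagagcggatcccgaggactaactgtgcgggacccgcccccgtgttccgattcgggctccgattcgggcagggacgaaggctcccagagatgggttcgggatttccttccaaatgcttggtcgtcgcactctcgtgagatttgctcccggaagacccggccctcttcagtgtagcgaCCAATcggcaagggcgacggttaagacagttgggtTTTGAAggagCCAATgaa
Ccnb2: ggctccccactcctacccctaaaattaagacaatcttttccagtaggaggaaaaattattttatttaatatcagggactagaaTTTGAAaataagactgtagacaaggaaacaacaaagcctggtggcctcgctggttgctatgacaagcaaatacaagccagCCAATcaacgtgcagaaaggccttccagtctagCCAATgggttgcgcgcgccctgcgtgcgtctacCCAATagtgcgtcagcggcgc
The CHR letters begin 18 bases before the Cdc20 start and 167 bases before the Ccnb2 start, and Ccnb2 has a further match 5 bases after its start, outside the printed bases. CCAAT letters occur 2 times in the Cdc20 bases and 3 times in those of Ccnb2, and neither window holds E2F letters.

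RefSeq promoter windows from 250 bases before to 50 after the start were matched for 26 of the 34 measured members, with 1 window per gene. The letters searched on both strands were TTTCCCGC, TTTCGCGC, TTTGCCGC and TTTGGCGC for E2F, TTTGAA and TTCGAA for the CHR, and CCAAT; E2F matches on opposite strands can overlap each other. E2F letters were in 8 of the 26 windows (30.8%), against 2.32% of the windows of all 27025 genes. In the replication set they were in 4 of 7 windows (57.1%) and in the mitosis set in 1 of 11 (9.09%), that of Cdk1. CHR letters were in 11 of 26 members (42.3%) and in 19.4% of all genes, with 2 of 7 windows in the replication set and 8 of 11 (72.7%) in the mitosis set. CCAAT letters were in 18 of 26 members (69.2%) and 37.9% of all genes, with 7 of 7 and 9 of 11 in the sets. These counts describe letters in a window and show neither binding nor a cause of the values.

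Among the passenger, checkpoint and motor genes, Birc5 (survivin) and Aurkb, partners in the chromosomal passenger complex, were above sham without overlap at 90 min in young liver. Birc5 was at 1.26, 2.00 and 1.27 there against 0.820, 1.07 and 1.11 in sham (0.57 ± 0.26; limma, adjusted p = 0.495), and at 2.41, 1.01 and 1.14 after 30 min. Aurkb was at 1.69, 1.12 and 1.10 after 30 min against 1.02, 0.928 and 1.06 in sham, a difference of 0.36 ± 0.12 (adjusted p = 0.349) with no overlap. The spindle checkpoint genes Mad2l1, Bub1 and Bub1b had differences of 0.41, 0.24 and 0.08 at 90 min. Mad2l1 was at 1.47, 1.48 and 1.06 there against 1.08, 0.918 and 0.999 in sham. The motors Kif11 and Kif20a and the DNA-untangling enzyme Top2a were at 1.38, 1.84 and 1.92 on young 30 min replicate 1, and their young differences ran from 0.07 (Top2a at 60 min) to 0.50 (Top2a at 90 min). In adult liver the largest difference among these 8 genes was 0.16 (Top2a at 60 min).

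Without overlap with sham, 7 members were higher and 0 lower at 30 min in young mice, where 5.31% of all genes were higher and 9.49% lower in that way. After 60 min the counts were 1 and 3 (5.54% and 7.78%) and after 90 min 6 and 0 (4.45% and 9.50%). In adult mice they were 4 and 1 after 30 min (5.17% and 6.29%), 1 and 6 after 60 min (11.1% and 25.9%), and 1 and 5 after 90 min (12.8% and 26.4%). The 6 at 60 min in adult mice were Mcm3, Mcm4, Mcm6, Mcm7, Rrm1 and Ccnd1, and the 5 at 90 min were Mcm4, Mcm6, Mcm7, Rrm1 and Gmnn. Over all 34 members, the adult shares of lower values were thus below those of all genes.

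**Figure D4:**
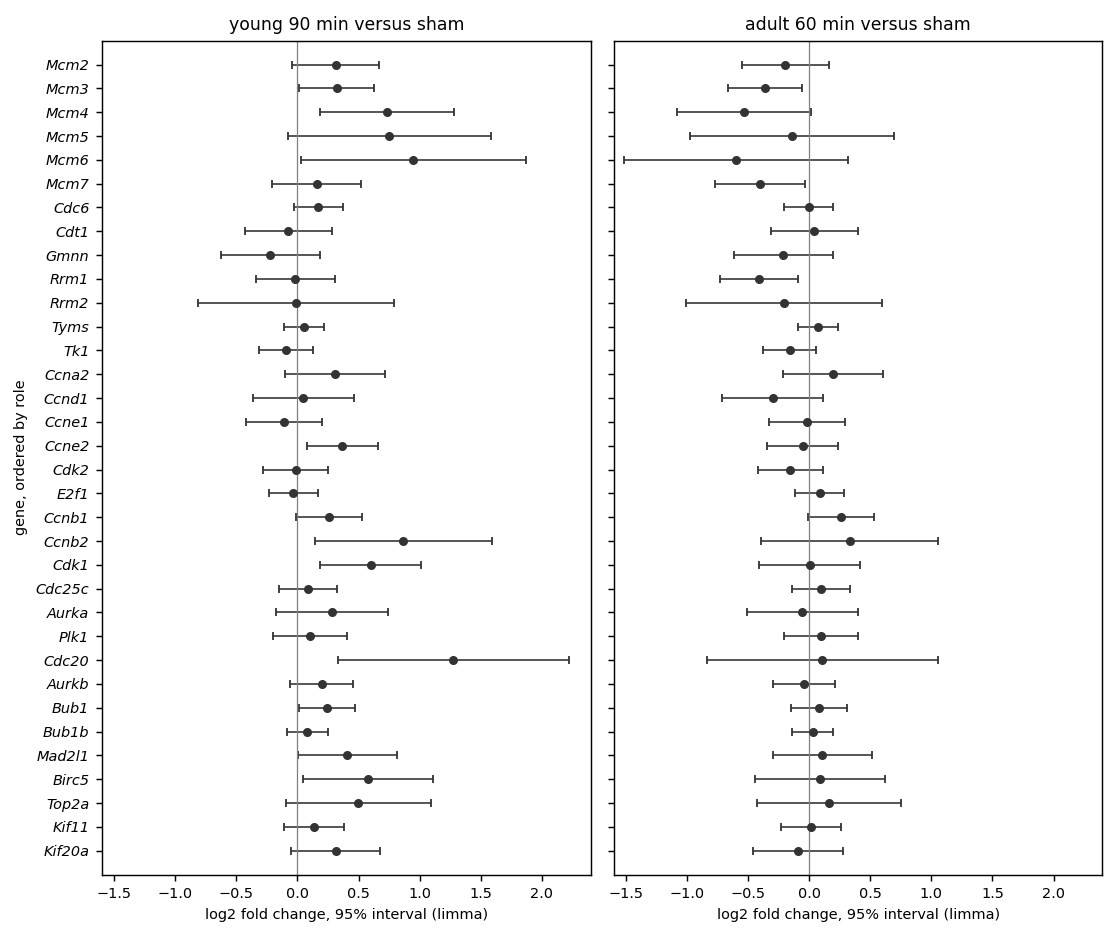
Log2 difference from sham with its 95% interval from limma for the 34 members in young mice at 90 min and adult mice at 60 min. Each interval uses an SE pooled over both ages. Cdc20 is farthest to the right in young mice, at 1.27 (0.33 to 2.22), the replication genes lie left of 0 in adult mice, and no member passed the threshold in either comparison.

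The difference between the ages was tested in the same model, as the adult response less the young response. No member and no gene of the 14351 (0%) passed at 30, 60 or 90 min. The median of the members was -0.21 at 30 min, -0.08 at 60 min and -0.22 at 90 min, with 4, 12 and 6 of 34 above 0. Over all genes the medians were -0.003, -0.05 and -0.02, with 7080, 5829 and 6657 of 14351 above 0. With 1 array left out, the mean of the members ran from -0.36 to -0.06 at 30 min. It ran from -0.17 to 0.02 at 60 min and from -0.46 to -0.24 at 90 min. The -0.06 came without young 30 min replicate 1 and the 0.02 without young 60 min replicate 1. At an unadjusted p under 0.05, Cdk1 and Aurkb were lower in the adult response at 30 min and none was higher (0.857% and 1.25% of all genes). Cdt1 was higher at 60 min and none was lower (2.24% and 4.58%). At 90 min Mcm3, Mcm4, Mcm6 and Cdk1 were lower and none was higher (7.03% and 4.20%). With 1 array left out these counts of 2, 1 and 4 ran from 0 to 5, from 0 to 3 and from 2 to 9. The highest of each came without young sham replicate 3, and at 90 min also without young 90 min replicate 3. Leaving out any of young sham replicate 1, young 30 min replicate 1, adult sham replicate 1 or 2 and adult 30 min replicate 3 took the 30 min count to 0. The 60 min count went to 0 without young sham replicate 1, young 60 min replicate 1 or 3, adult sham replicate 2 or 3 or adult 60 min replicate 1. At 90 min it was 2 without young sham replicate 1 or 2 or young 90 min replicate 2. With the title code as a block the counts were 0, 0 and 5. The shares of all genes in these refits are not given here. Mcm4 had a difference of -1.22 ± 0.37 at 90 min (limma, adjusted p = 0.404). For Mcm6 it was -1.53 ± 0.62 (95% interval -2.83 to -0.23, adjusted p = 0.431) and for Cdk1 -0.72 ± 0.28 (adjusted p = 0.431). All 8 replication genes had a negative value at 90 min, from -1.53 (Mcm6) to -0.33 (Rrm1). The same held at 30 min, from -0.72 (Mcm6) to -0.17 (Mcm3), while at 60 min 5 of the 8 were negative. Each age was scaled to its own sham arrays.

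Other genes of the pathway were taken from a list of 105 genes by role, of which 96 were measured. In adult mice at 60 min, 1 passed as higher and 2 as lower, where 2.15% and 9.78% of all genes did, and no gene of the list passed in the other 8 comparisons. E2f8, a repressor among the E2F factors, rose in adult liver at 60 min to 1.25, 1.33 and 1.61 from 0.967, 1.02 and 1.01 in sham (0.47 ± 0.13; limma, adjusted p = 0.0319). In young liver E2f8 was at 1.37, 1.40 and 1.37 after 30 min and at 1.75, 1.40 and 1.11 after 60 min against 1.06, 1.03 and 0.916 in sham, with differences of 0.47 and 0.48 ± 0.13 (adjusted p = 0.163 and 0.172). Orc4, a subunit of the origin recognition complex, fell in adult liver at 60 min to 0.615, 0.628 and 0.646 from 0.961, 0.924 and 1.12 (-0.66 ± 0.16, adjusted p = 0.0298). Rpa1, which coats single-stranded DNA at the fork, fell to 0.650, 0.707 and 0.620 from 0.949, 1.04 and 1.01 (-0.60 ± 0.17, adjusted p = 0.0373). All 3 calls were lost with quantile normalization (adjusted p = 0.477 for each), and that of Orc4 with the adult arrays alone (0.0523). The E2f8 call was also lost without any 1 of the 3 adult sham arrays or adult 60 min replicate 2 or 3, the Orc4 call without adult sham replicate 1 or 3 or adult 60 min replicate 2 or 3, and the Rpa1 call without any 1 of these 6 arrays. The adjusted p reached 0.153, 0.121 and 0.148 without adult 60 min replicate 3. By role, 14 genes of origin recognition and firing had a median of -0.12 in adult mice at 60 min, 21 polymerase, clamp loader and repair genes -0.21, 31 chromosome, kinetochore and spindle genes 0.01, 23 regulators 0.02 and 7 CDK inhibitors 0.01, beside -0.05 over all genes. In young mice at 30 min the same medians were -0.01, 0.09, 0.13, 0.08 and -0.04, beside -0.02, and at 90 min they were 0.02, 0.08, 0.13, 0.04 and 0.03.

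Markers of other cells were read on the same arrays, since dividing cells in liver can be of several types. The erythroid precursor markers (13 of 16 measured) had means between -0.10 and 0.11 on all 24 arrays, and on young 30 min replicate 1 the mean was -0.02. On that array the mean was 0.02 for T and NK cell markers (14 of 16), -0.03 for B and plasma cell markers (8 of 9), -0.17 for neutrophil and granulocyte precursor markers (11 of 12), 0.07 for Kupffer cell markers (12 of 13) and -0.06 for hepatocyte markers (10 of 12), while the mean of the 34 cell cycle members was 0.62. Endothelial, stellate and cholangiocyte means are not given for that array, and the part of any cell type in its values was not tested. Kupffer cell markers had means of -0.40, -0.50 and 0.50 in adult sham, -1.001, -0.674 and -0.344 after 30 min, -0.22, -0.79 and -1.06 after 60 min and -1.72, -1.07 and -1.20 after 90 min. Of these 12 markers, 0 passed at 30 min, 1 fell at 60 min and 11 fell at 90 min, led by Cd163 (-1.84 ± 0.25; limma, adjusted p = 0.00114). Among all genes 9.78% fell at 60 min and 901 of 14351 at 90 min. With quantile normalization 0 of all genes passed at 60 min and 3 at 90 min in adult mice. The Kupffer cell call at 60 min and most of these 11 calls at 90 min were thus lost. Hepatocyte markers had means of 0.00, -0.02 and -0.06 in adult sham, -0.16, -0.17 and -0.02 after 30 min, -0.17, -0.32 and -0.51 after 60 min and -0.06, -0.08 and -0.50 after 90 min. Among stellate cell markers 4 of 12 fell in young mice at 90 min, led by Colec11 (-1.04 ± 0.18, adjusted p = 0.0206), and 2 fell in adult mice at 90 min. For endothelium 1 of 12 fell in adult mice at 90 min, for erythroid precursors 1 of 13 rose in adult mice at 60 min (Ermap, 0.70 ± 0.21, adjusted p = 0.0384), and for hepatocytes 1 of 10 fell in adult mice at 90 min (Hnf4a, -0.56 ± 0.15, adjusted p = 0.0375). The Ermap call too was lost with quantile normalization, and at most 3 of the adult marker calls at 90 min can have remained. No marker of cholangiocytes, T and NK cells, B and plasma cells or neutrophils passed. Among all genes, 0.181% passed in young mice at 90 min, 7.45% in adult mice at 90 min, and 2.15% rose in adult mice at 60 min. In adult mice at 60 and 90 min all 8 replication genes, all 12 Kupffer cell markers and 9 of the 10 hepatocyte markers had differences from sham below 0. Of all 14351 genes, 8420 were below 0 at 60 min, 8104 at 90 min and 8185 at 30 min. At 30 min all 12 Kupffer cell markers (mean -0.54, beside -0.56 at 60 min) and 9 of the 10 hepatocyte markers (mean -0.09) were below 0 as well, while 4 of the 8 replication genes were, with a mean of -0.05. The part of these markers in the replication values was not tested.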

How the data were processed

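Liver RNA of 24 mice was measured on Affymetrix 3' arrays. The deposited values were made with RMA, per the submitters' processing notes, which give no version, and are linear ratios, scaled so that the sham arrays of either age average 1 (within 2e-07). Of 26180 probe sets, 15228 were paired with 1 gene symbol through a RefSeq table and 10952 with none. Where several probe sets stood for a gene, 1 was taken by accession type and lowest accession number, giving 14351 genes. Groups come from the sample titles. Replicates are separate mice, per the series' design text, and are numbered in the order of deposit.

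A model of 8 group means was fitted to the log2 ratios with limma 3.58.1 in R 4.3.3 (16 residual and 4.53 prior degrees of freedom), with two-sided tests and Benjamini-Hochberg adjustment within each comparison. The fit was tested on simulated data. The title code paired the arrays unevenly. Over the 29 pairs sharing a code, deviations from group means correlated from -0.384 to 0.423 (median 0.0538), with 12 pairs over 0.1. All 3 pairs were over 0.1 between adult sham and adult 30 min (0.229, 0.247 and 0.367) and between young 60 and 90 min (0.14, 0.423 and 0.397), and in no other combination of groups with 3 or more pairs. The code was therefore a block only as an alternative. Dim probe sets could not be filtered, as ratios keep no brightness.

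The members, the sets and the lists of pathway and marker genes were chosen with earlier results of these data known. Since no member passed, those given on every array are chiefly the 3 with the largest rise and the 3 with the largest fall in each ischemia comparison. Other members given by array were chosen after their values were seen. Pathway genes are named where they passed, and marker genes by size of change or where 1 of a list passed. Alternatives were each probe set on its own, the mean over a gene's probe sets, median centring, quantile normalization, the title code as a block, arrays of 1 age, a robust prior and each array left out. Counts at an unadjusted p, mean differences of the members and differences within a title code were added after seeing the data.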

Additional observations from a re-analysis of the deposited data

How the results depend on the processing

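The count of members that passed was 0 in 131 of 132 refits over the 9 comparisons. The exception was the title code as a replicate block in adult mice at 90 min, where 1 member passed (Ccnb1). In the other 8 comparisons 0 members passed under that block, adult 30 min against sham included, where all same-code pairs correlated over 0.1. Counts at an unadjusted p under 0.05 did move under the block, from 8, 3 and 10 to 3, 6 and 4 in young mice, from 0, 3 and 2 to 1, 5 and 4 in adult mice, and from 2, 1 and 4 to 0, 0 and 5 between the ages. Shares of all genes under the block are not given for these counts. With quantile normalization the replication mean less the mitosis mean went to 0.080 from -0.01 in young mice at 30 min, a move above the SD of the 30 min arrays (0.0687) and well within that of the sham arrays (0.303). In adult mice at 60 min it went to -0.30 from -0.43, above both SDs (0.0154 and 0.0401). With 1 array left out it ran from -0.10 to 0.17 and from -0.45 to -0.41 in these comparisons. Cdc20 in young mice at 60 min ran from -0.0084 to 0.89 with 1 array left out, against 0.54. Over all genes, quantile normalization left 0 calls in adult mice at 60 min and 3 at 90 min, instead of 1712 and 1069. Arrays of 1 age only gave 587 and 47 there, and 46, 16 and 66 in young mice at 30, 60 and 90 min instead of 8, 4 and 26. The cause was not tested. With 3 arrays per group and no brightness, changes of dim probe sets cannot be told from noise.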
